A study of Mus musculus with 14 samples.

Results

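The genes described here carry the liver's program of glucose production during fasting. They are 10 genes: Pck1, G6pc, Fbp1, Pcx, Tat, Sds, Gcgr, Ppargc1a, Irs2 and Foxo1. Their chromatin accessibility was measured by ATAC-seq, in which a transposase cuts and tags open DNA, in nuclei isolated from 50 mg of frozen tissue per liver (14 female mice). All animals carried a floxed matrin-3 gene (Matr3, which encodes a nuclear protein that binds RNA and DNA). The knockouts (LKO) also carried an Albumin-Cre transgene, which removes the floxed part chiefly in hepatocytes, so other liver cells may keep their gene. The floxed littermates served as controls. From 7 weeks of age the mice received chow or a diet with 60 kcal% fat for 16 weeks, with 3 knockouts and 3 floxed mice on chow and 4 of each under the high-fat diet. The design text states that high-fat mice were fasted for 12 h before collection; for chow it states no fast, so whether those livers were fed or fasted is unknown here.

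Members were found by position. An interval of the authors' tables belonged to a gene if its midpoint lay inside the RefSeq bounds of that gene, and otherwise to the nearest protein-coding gene within 50 kb. By this rule 201 of the 88203 intervals of the chow table and 296 of the 105801 intervals of the high-fat table belonged to the 10 genes, out of 16697 genes with an interval in all. All intervals are 501 bp wide. Gcgr, the glucagon receptor, had no interval in either table, so it is listed without a value, and 9 genes remained. Pck1 held 19 intervals on chow and 35 under the high-fat diet, G6pc 21 and 24, Fbp1 33 and 45, Pcx 17 and 38, and Tat 22 and 33. Sds held 9 and 9, Ppargc1a 26 and 26, Irs2 29 and 36, and Foxo1 25 and 50.

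During fasting, glucagon raises cAMP in hepatocytes and glucocorticoids activate their receptor, while low insulin leaves the forkhead factor FOXO1 in the nucleus. These signals meet at the promoters and enhancers of the genes for gluconeogenic enzymes, and feeding reverses them through insulin and its receptor substrates. Pcx encodes pyruvate carboxylase, which makes oxaloacetate from pyruvate in mitochondria, and Pck1 the cytosolic enzyme that turns oxaloacetate into phosphoenolpyruvate. Fbp1 encodes fructose-1,6-bisphosphatase, and G6pc the catalytic subunit of glucose-6-phosphatase, which releases free glucose. Tat (tyrosine aminotransferase) and Sds (serine dehydratase) break down amino acids that feed this pathway, and Tat is a classical target of glucocorticoids. Ppargc1a encodes the coactivator PGC-1alpha, and Irs2 a substrate of the insulin receptor that is itself raised in the fasted liver.

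On mm10 (the bounds are from RefSeq on GRCm38.p6), the enzymes lie at chr19:4510472-4621752 for Pcx, chr2:173153073-173159274 for Pck1, chr13:62864753-62888298 for Fbp1 and chr11:101367716-101377903 for G6pc. Tat lies at chr8:109986078-109999804 and Sds at chr5:120476547-120483932. The regulators lie at chr11:120529185-120538989 for Gcgr, chr5:51454249-52115853 for Ppargc1a, chr8:10984681-11008929 for Irs2 and chr3:52268337-52350109 for Foxo1. Gene bounds were available without exons, so intervals are placed as inside or outside a gene and by their distance from the RefSeq start site, which was at hand for all of these genes but Sds.

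The RefSeq promoter windows of Pck1, G6pc and Tat are shown because Pck1 and G6pc had the widest ranges of the members over the chow libraries, and Pck1 and Tat held the 2 intervals that passed the test. Each covers 250 bp before to 50 bp after the start site, written along the gene's own strand (plus for all 3). They lie at chr2:173152823-173153122, chr11:101367466-101367765 and chr8:109990186-109990485. Capitals mark matches to the motifs searched on both strands: the cAMP response element TGACGTCA and its shorter form TGACG, the forkhead motifs TGTTTAC and TGTTTTG, the glucocorticoid motif TGTTCT and the TATA box TATAAA.
Pck1: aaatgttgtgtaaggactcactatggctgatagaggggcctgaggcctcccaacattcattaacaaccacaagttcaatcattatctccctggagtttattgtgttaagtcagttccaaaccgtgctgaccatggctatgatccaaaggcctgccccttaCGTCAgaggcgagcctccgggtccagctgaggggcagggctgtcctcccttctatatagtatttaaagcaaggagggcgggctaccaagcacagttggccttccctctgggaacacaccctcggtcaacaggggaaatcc
G6pc: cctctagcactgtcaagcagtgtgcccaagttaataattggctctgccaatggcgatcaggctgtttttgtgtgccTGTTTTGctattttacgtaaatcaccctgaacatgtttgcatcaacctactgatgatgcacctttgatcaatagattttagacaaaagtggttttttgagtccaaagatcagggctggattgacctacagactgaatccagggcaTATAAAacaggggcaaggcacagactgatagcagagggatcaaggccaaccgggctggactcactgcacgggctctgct
Tat: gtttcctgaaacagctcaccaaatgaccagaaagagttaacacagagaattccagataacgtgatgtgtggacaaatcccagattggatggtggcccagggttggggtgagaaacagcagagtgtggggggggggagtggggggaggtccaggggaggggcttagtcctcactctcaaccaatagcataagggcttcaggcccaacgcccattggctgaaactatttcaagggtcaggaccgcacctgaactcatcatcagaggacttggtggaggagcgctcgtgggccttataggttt

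The Pck1 window held the shorter form TGACG on the minus strand 90 bp before the start site. The G6pc window held TGTTTTG 174 bp and TATAAA 29 bp before the start site, and the Tat window held none of the letters searched. Among the other genes, Ppargc1a held TGACG 49 bp and Irs2 TGTTTTG 37 bp upstream, and the windows of Fbp1, Pcx, Foxo1 and Gcgr held none. Over all 32851 RefSeq promoter windows of the same 300 bp, TGACG occurred in 20.8%, the full TGACGTCA, which contains it, in 1.79%, TGTTTTG in 6.28%, TGTTTAC in 3.65%, TGTTCT in 19.0% and TATAAA in 13.6%.

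Reads within intervals totalled 15.5 to 35.0 M per chow library and 7.59 to 10.4 M per high-fat library, and the member intervals took 0.182% to 0.398% of them on chow and 0.319% to 0.436% on the high-fat diet. A member interval held a median of 139 to 364 reads in a chow library and 54.5 to 92.5 in a high-fat library. The chow libraries numbered 2 were the shallow pair, and on the high-fat diet knockout 1 and floxed 3 had the highest and the lowest share of reads in the members. Chow libraries are numbered by their column headings, which tie to a genotype but to no single animal of the labels. The intervals of 8 hepatocyte marker genes averaged 14.6 to 21.3 CPM (read counts scaled to library size) on chow and 7.93 to 17.2 CPM on the high-fat diet, whereas markers of Kupffer, endothelial, stellate, biliary and lymphoid cells and neutrophils averaged 4.43 to 9.70 CPM and 4.52 to 8.48 CPM. The 7 intervals of Matr3 averaged 13.7 to 14.2 CPM in floxed and 12.8 to 13.6 CPM in knockout chow livers (log2 fold change -0.09, SE 0.07) and -0.14 (SE 0.09) on the high-fat diet. They give no check of the deletion, since the floxed part of the gene is not named in the labels.

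On chow, single livers differed more than genotypes did. Levels below are the summed CPM of a gene's intervals divided by their number. Pck1 stood at 40.9, 9.67 and 27.1 CPM per interval in floxed livers 1, 2 and 3 and at 28.2, 27.5 and 8.57 in knockout livers 1, 2 and 3. In each genotype 1 liver was low, floxed 2 and knockout 3, and the groups overlapped. G6pc stood at 40.1, 6.84 and 11.9 CPM per interval in floxed and at 15.1, 14.1 and 5.90 in knockout livers, with the same 2 livers lowest and floxed 1 far above the others. The highest library exceeded the lowest 6.79-fold for G6pc and 4.78-fold for Pck1. Of 5485 genes with at least 5 chow intervals, 3 had a wider ratio than G6pc and 13 a wider one than Pck1, against a median ratio of 1.26 over all of them. The ratio for G6pc rested on floxed 1 and fell to 2.56-fold without it, when 42 genes were wider, and that for Pck1 became 3.30-fold. Without the shallow pair the ratios stayed at 6.79-fold and 4.78-fold. They could not change, since the highest library (floxed 1) and the lowest (knockout 3) of both genes lay outside that pair.

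**Figure D1:**
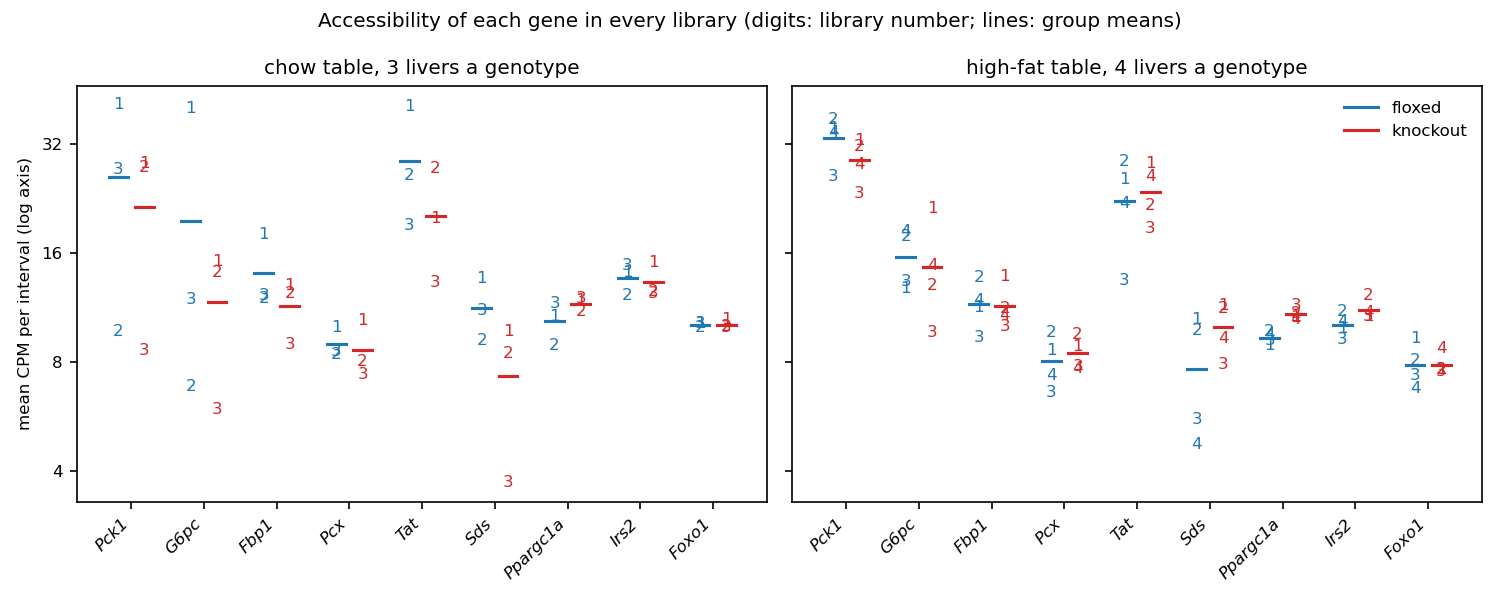
Mean CPM per interval of each gene (log axis) in every chow library (left) and high-fat library (right). Digits are library numbers and short lines are group means; on chow, floxed 2 and knockout 3 lie lowest for Pck1 (9.67 and 8.57 CPM) and G6pc (6.84 and 5.90 CPM).

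The amino acid enzymes varied nearly as much, in another order of livers. Tat stood at 40.6, 26.2 and 19.0 CPM per interval in floxed and at 19.9, 27.4 and 13.3 in knockout livers, a 3.06-fold range. Sds stood at 13.6, 9.14 and 11.1 in floxed and at 9.71, 8.44 and 3.71 in knockout livers, a 3.67-fold range. Knockout 3 was again lowest for both genes, but floxed 2 was in the middle. Without knockout 3 the ratio for Sds fell to 1.61-fold, and without floxed 1 that for Tat fell to 2.06-fold. Fbp1 ranged 2.01-fold, from 8.92 CPM per interval in knockout 3 to 17.9 in floxed 1.

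The remaining genes ranged less widely. Pcx (1.41-fold) and Ppargc1a (1.35-fold) still ranged more than the median gene, Irs2 ranged 1.24-fold and Foxo1 1.05-fold, and 5471 of the 5485 genes had a wider range than Foxo1. Without floxed 2 the ratio for Ppargc1a fell to 1.12-fold, below the median of 1.23 in the libraries left. Over the 9 genes floxed 1 was the highest library 5 times and knockout 3 the lowest 7 times. The summed hepatocyte markers moved partly alongside, at 21.2, 15.6 and 21.3 CPM per interval in floxed livers 1 to 3 and 18.01, 14.6 and 14.6 in knockout livers 1 to 3. Their part in the spread of the members, and that of feeding state, was not tested. In whole liver, fewer cells of a type and fewer open copies per cell cannot be told apart.

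Within the Pck1 and G6pc loci the chow livers differed at the start site and by a wider ratio past it. These stretches were chosen after the values were seen and are described without a test. At the Pck1 start window the chow libraries held 49.4, 22.2 and 46.4 CPM in floxed and 56.3, 38.8 and 35.5 CPM in knockout livers, a 2.54-fold range. Over the 6 intervals inside the gene and more than 1 kb past its start they averaged 58.1, 6.64 and 35.1 CPM in floxed and 31.8, 34.0 and 4.76 CPM in knockout livers, a 12.2-fold range. Knockout 3 thus kept a start-site signal close to that of knockout 2 while its gene body was the lowest of all libraries.

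G6pc showed the same layout. Its start window held 31.9, 8.25 and 17.8 CPM in floxed and 20.3, 10.04 and 12.8 CPM in knockout livers, a 3.86-fold range. The 12 intervals further inside the gene averaged 49.0, 5.34 and 10.2 CPM in floxed and 12.6, 12.7 and 3.18 CPM in knockout livers, a 15.4-fold range. Intervals of the 2 genes that lay outside the gene bounds ranged 2.403-fold for Pck1 and 2.34-fold for G6pc. For Tat the start window ranged 2.57-fold and the gene body 4.004-fold, and for Fbp1 1.62-fold and 2.32-fold. Foxo1 went the other way, with 1.85-fold at its start and 1.07-fold over 20 intervals inside the gene.

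**Figure D2:**
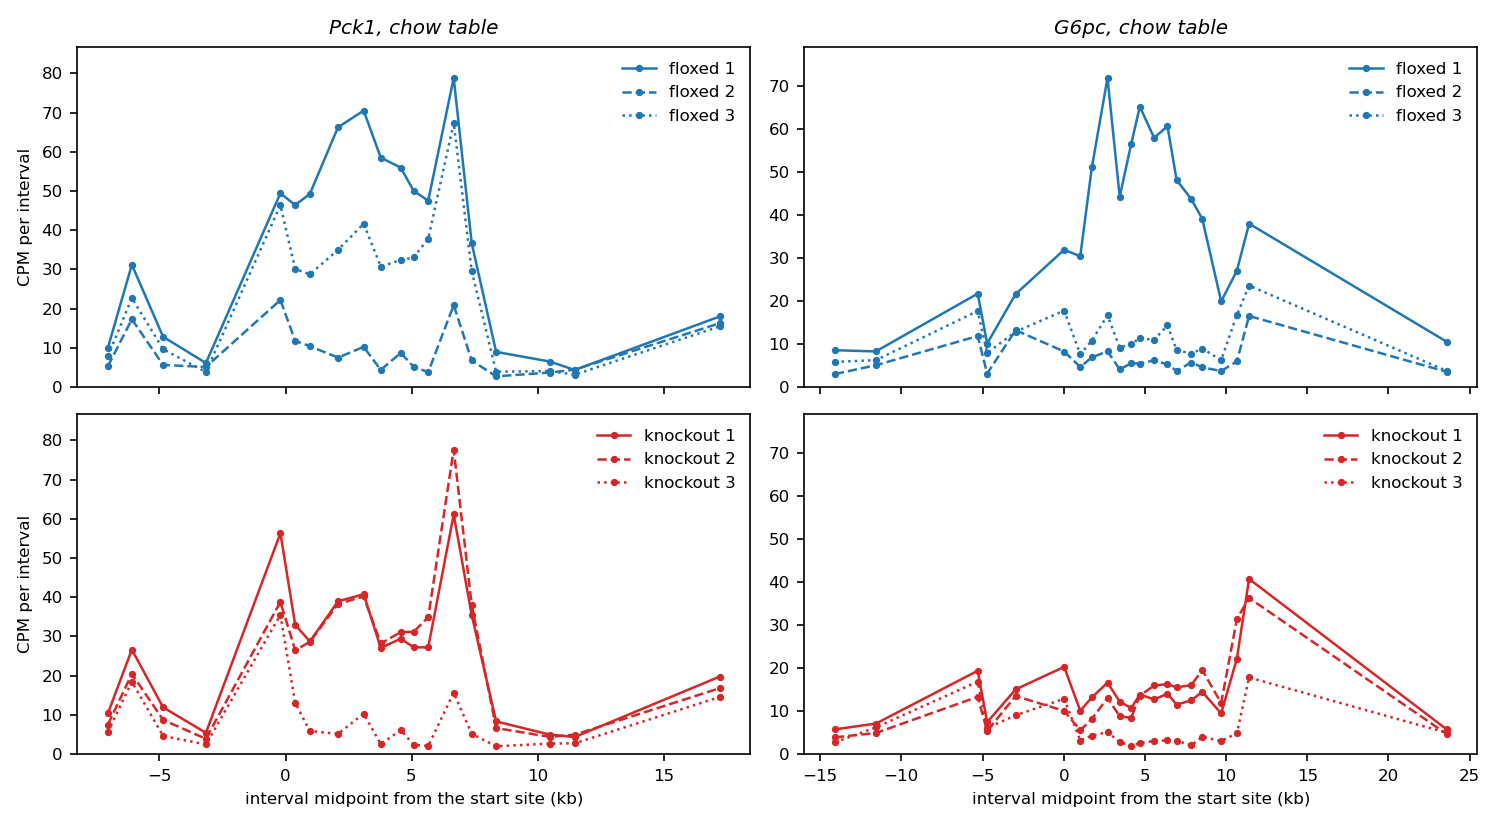
CPM of each chow interval of Pck1 (left) and G6pc (right) against the distance of its midpoint from the start site in kb, one line per library, floxed above and knockout below. Floxed 2 and knockout 3 stay low across the body of both genes, where Pck1 averages 6.64 and 4.76 CPM in these libraries; its start-site interval stands at 22.2 CPM, the lowest of the 6, and at 35.5 CPM.

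Genes with the most similar course over the 6 chow libraries were ranked by the root mean square difference of centred log2 levels, among genes with an SD of at least 50% of the member's. For both Pck1 (0.34, of 64 candidates) and G6pc (0.38, of 53) the nearest gene was Igfbp1, which encodes a secreted protein that binds insulin-like growth factors and that insulin represses. Igfbp1 stood at 25.8, 7.70 and 14.3 CPM per interval in floxed and 14.9, 17.8 and 8.78 in knockout livers, so floxed 2 and knockout 3 were again the lowest. The next were Ccdc152 for Pck1 (0.46) and Slc25a47 for G6pc (0.45). For Tat the nearest were Glis1 (0.23) and Cyp3a41b (0.29) of 394 candidates. Ppargc1a varied so little that 4463 genes were candidates, with Aplp2 (0.02) and Gnat3 (0.03) nearest.

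**Figure D3:**
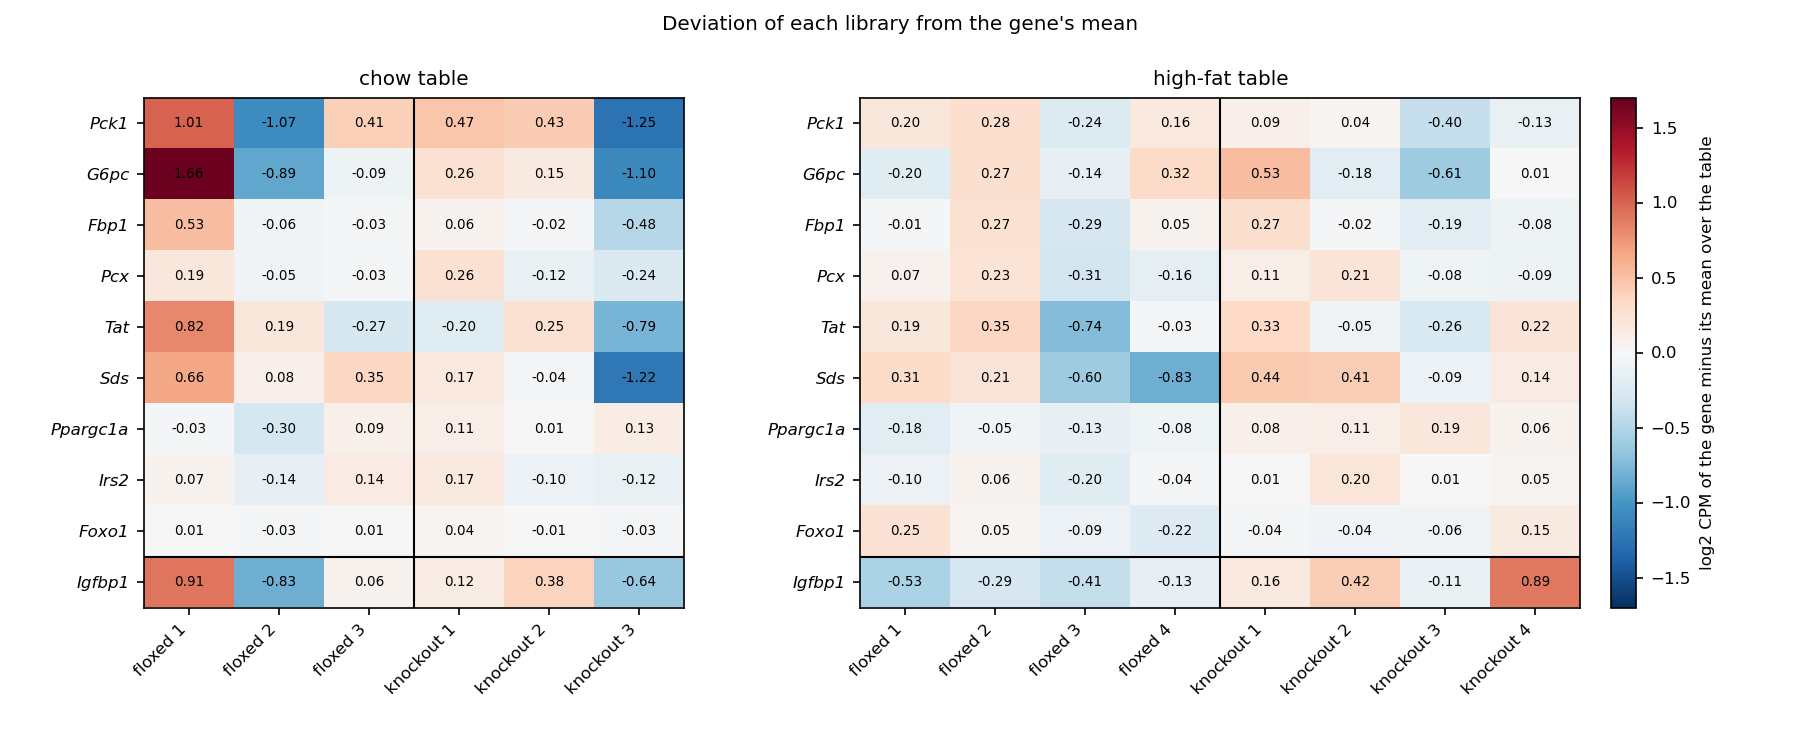
log2 CPM of each gene in each library minus the gene's mean over its table, for the 9 members and, under the line, Igfbp1. On chow Pck1 reads -1.07 in floxed 2 and -1.25 in knockout 3; on the high-fat diet its deviations lie between -0.40 and 0.28, while those of Foxo1 reach 0.25 there and 0.04 on chow.

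Between knockout and floxed livers on chow, no member passed the test. In edgeR's quasi-likelihood test, with Benjamini-Hochberg adjustment over the whole table and a threshold of 0.05, 0 of 201 member intervals passed, where 0.0227% of all chow intervals did (20, or 126 with the library number as a block). DESeq2 and limma-voom each called 1 member interval, of 544 and 677 calls over all chow intervals. At an unadjusted p under 0.05 there were 15 member intervals, or 7.46%, beside 6.77% of all intervals, and 16, or 7.96%, had groups that did not overlap, beside 11.7%. The median log2 fold change of knockout over floxed was -0.14 over the member intervals (68 above and 133 below 0). It was -0.003 over all chow intervals, of which 50.6% were below 0. Neighbouring intervals of a gene come from the same livers and are not independent, so these counts carry no test.

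Summed over each gene, 0 of 9 members passed on chow by edgeR, DESeq2 or limma-voom, where edgeR called 0% of 15932 genes, and 0 of 9 had an unadjusted p under 0.05, beside 6.57%. G6pc had a log2 fold change of -0.75 (SE 0.57, adjusted p = 0.727), Sds of -0.64 (SE 0.30, 0.718), Tat of -0.50 (SE 0.30, 0.718) and Fbp1 of -0.30 (SE 0.19, 0.718). Pck1 was at -0.27 (SE 0.51, 0.871), Pcx at -0.05 (SE 0.13), Irs2 at -0.04 (SE 0.12), Foxo1 at 0.00 (SE 0.08) and Ppargc1a at 0.16 (SE 0.11, 0.718). Single libraries set the sign for Pck1 and G6pc: leaving out each in turn gave values from -0.67 to 0.22 and from -1.15 to 0.32.

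**Figure D4:**
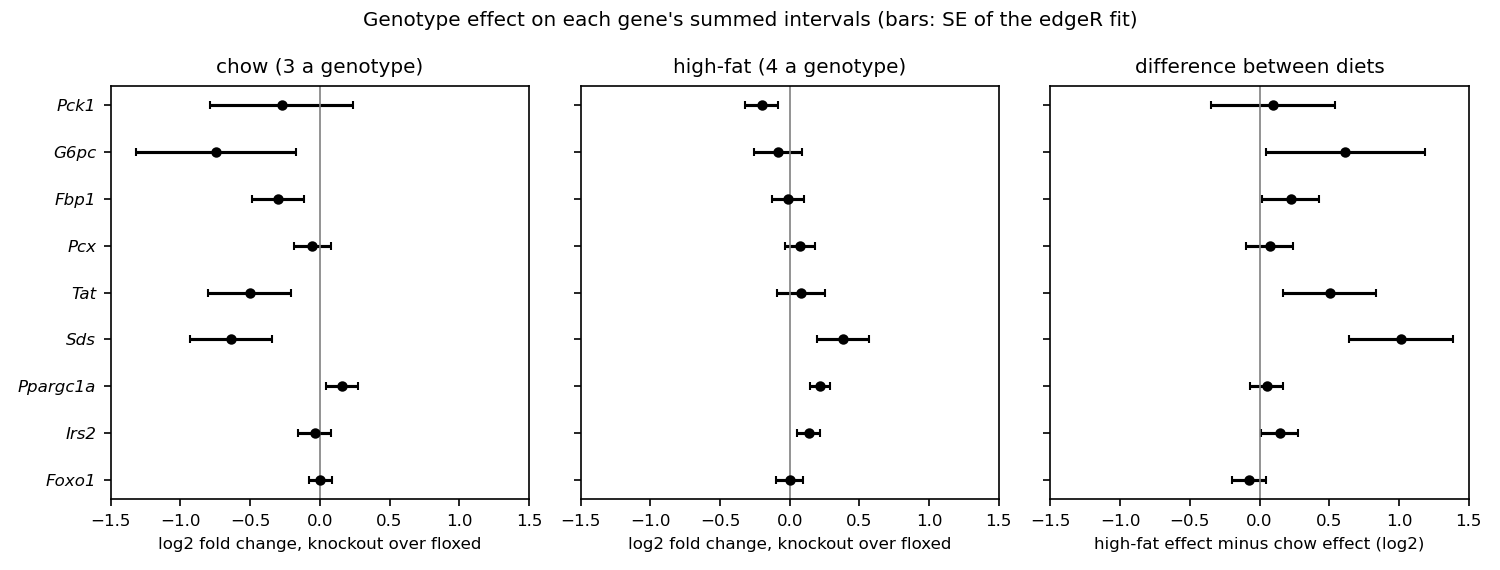
log2 fold change of knockout over floxed for each gene's summed intervals on chow (left) and the high-fat diet (middle), and the effect under the high-fat diet minus that on chow (right), with the SE of the edgeR fit. Bars are widest on chow for G6pc (SE 0.57) and Pck1 (SE 0.51); no gene passed the threshold in any panel.

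At the start sites, no fold change on chow passed the test. The 8 intervals on the promoter windows of 7 genes, at 13.8 to 41.4 CPM, had log2 fold changes from -0.43 (G6pc, SE 0.39) to 0.18 (Foxo1, SE 0.25), with a lowest adjusted p of 0.826. The Pck1 start interval held 39.3 ± 14.9 CPM without and 43.5 ± 11.2 CPM with the knockout (SD, n = 3), and that of Tat 20.9 ± 9.80 and 19.4 ± 3.40 CPM. The most accessible Pck1 interval on chow lay just past the end of the gene, at chr2:173159496-173159996, with 55.7 ± 30.7 and 51.5 ± 32.1 CPM. That of G6pc, at chr11:101378882-101379382, held 26.0 ± 10.9 and 31.6 ± 12.1 CPM, and that of Tat, at chr8:109999890-110000390, 59.2 ± 12.5 and 46.6 ± 29.0 CPM. The strongest interval thus lay past the gene's end for each of these 3 genes.

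The lowest p of any chow member interval belonged to Ppargc1a. At chr5:51445684-51446184, outside the gene and 122 kb downstream of its start site, accessibility was 4.23 ± 0.10 CPM in the floxed group and 8.36 ± 1.30 CPM in the knockouts (SD, n = 3). The log2 fold change was 0.98 (SE 0.20), with groups that did not overlap. It missed the threshold in edgeR (adjusted p = 0.194) and passed in DESeq2 (adjusted p = 0.00726) and limma-voom (adjusted p = 0.0486). The lowest p within G6pc was at chr11:101371620-101372120, in the gene body, with 24.0 ± 28.2 CPM in the floxed group and 7.01 ± 4.53 CPM in the knockouts. Its log2 fold change was -1.80 (SE 0.77, adjusted p = 0.725), and the floxed SD exceeded the floxed mean. Within Sds it was at chr5:120479934-120480434 (7.89 ± 2.18 and 3.62 ± 1.87 CPM, log2 fold change -1.16, SE 0.37, adjusted p = 0.542). Within Fbp1 it was at chr13:62884960-62885460 (15.1 ± 8.38 and 7.48 ± 1.56 CPM, -1.02, SE 0.32, adjusted p = 0.538). All 9 Sds intervals had a negative fold change on chow. By the authors' interval names all 9 were called in floxed livers and 0 in knockouts, which favours this sign. They also share the same livers, so the count gives no support of its own.

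On the high-fat diet, where all animals were fasted per the labels, 6 of the 9 genes had a narrower range between livers than on chow, and Pcx, Irs2 and Foxo1 a wider one. Pck1 stood at 35.1, 37.3, 26.0 and 34.3 CPM per interval in floxed livers 1 to 4 and at 32.6, 31.5, 23.3 and 28.0 in knockout livers 1 to 4, a 1.60-fold range. G6pc stood at 12.7, 17.7, 13.4 and 18.3 in floxed and at 21.1, 13.0, 9.63 and 14.8 in knockout livers, a 2.19-fold range. Knockout 3 was lowest for both genes, and the groups overlapped. Tat stood at 25.4, 28.5, 13.4 and 21.9 in floxed and at 28.2, 21.5, 18.7 and 26.0 in knockout livers, a 2.13-fold range that became 1.53-fold without floxed 3. Each diet is a table of its own, with its own intervals, number of libraries and depth. Spreads are thus set side by side and not compared by a test, and the part of the fast was not tested. The median ratio over 6357 genes with at least 5 high-fat intervals was 1.28, and 69 of them were wider than G6pc, 77 than Tat and 463 than Pck1.

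Sds was the most variable member there, at 10.5, 9.76, 5.55 and 4.73 CPM per interval in floxed and 11.4, 11.2, 7.88 and 9.30 in knockout livers, a 2.42-fold range that 44 genes exceeded. Floxed 3 and 4 were the low livers. Floxed 3 lay below the mean of its table for all 9 members. Pcx, Fbp1, Irs2, Foxo1 and Ppargc1a ranged 1.46-, 1.47-, 1.33-, 1.38- and 1.29-fold. The genes of most similar course over the 8 libraries were Fxyd1 and Ccs for Pck1 (0.04 and 0.06, of 3368 candidates) and Apoa5 and Zpr1 for G6pc (0.15 and 0.17, of 1158). They were Urad and Tedc2 for Tat (0.15 and 0.15, of 1108) and Snai1 and Smpd3 for Ppargc1a (0.04 and 0.04, of 5885). Igfbp1 was not among them.

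With the high-fat diet, 2 member intervals fell in the knockout, 1 in the body of Pck1 and 1 in the body of Tat. They were 2 of 296, or 0.676%, where edgeR called 0.751% of all 105801 intervals in either direction and 0.303% as lower in the knockout. DESeq2 called 1 member interval, of 829 calls over all high-fat intervals, and limma-voom 4, of 656 calls. At an unadjusted p under 0.05 there were 37 member intervals, or 12.5%, beside 10.2% of all. The groups did not overlap for 10 member intervals, or 3.38%, beside 5.3% of all. The median log2 fold change was 0.06 over the member intervals (183 above and 113 below 0). It was -0.004 over all intervals, of which 50.6% were below 0, and these counts again carry no test.

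The Pck1 interval lay at chr2:173157844-173158344, 5.02 kb past the start site and near the end of the gene. It held 60.2, 60.4, 43.6 and 54.7 CPM in floxed livers 1 to 4 and 43.0, 38.2, 30.2 and 37.6 CPM in knockout livers 1 to 4. Every floxed liver was above every knockout liver, by a narrow gap between floxed 3 and knockout 1. The mean went from 54.7 ± 7.87 to 37.2 ± 5.31 CPM (SD, n = 4), a fall of 0.55 on the log2 scale (log2 fold change -0.55, SE 0.11, edgeR adjusted p = 0.0111). The call was lost without knockout 3 (edgeR adjusted p = 0.0771), knockout 4 (0.0508), floxed 2 (0.0654) or floxed 4 (0.0513).

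The Tat interval lay at chr8:109992425-109992925, 2.24 kb past the start site inside the gene. It held 39.9, 42.5, 29.9 and 42.9 CPM in floxed and 33.9, 28.0, 18.7 and 24.5 CPM in knockout livers, so the groups overlapped through floxed 3 and knockout 1. The mean went from 38.8 ± 6.07 to 26.3 ± 6.38 CPM (SD, n = 4; log2 fold change -0.56, SE 0.14, edgeR adjusted p = 0.0497). DESeq2 did not call it (adjusted p = 0.0599), and edgeR lost it without knockout 2 (0.0755), knockout 3 (0.244) or knockout 4 (0.200) and without floxed 1 (0.0901), floxed 2 (0.176) or floxed 4 (0.217). Without knockout 1 and floxed 3 the log2 fold changes were -0.72 for Pck1 and -0.81 for Tat, and 10 member intervals passed. These 2 libraries had the highest and the lowest share of reads in the members, so leaving them out favours lower values in the knockout, and these values give the 2 calls no support. The summed hepatocyte markers were also lower in these knockouts, at 11.8, 11.6, 7.93 and 10.6 CPM per interval in knockout livers 1 to 4 against 17.2, 14.9, 10.1 and 12.8 in floxed livers 1 to 4. Of the 339 hepatocyte marker intervals edgeR called 42 lower and 1 higher in the knockout, beside 0.303% of all high-fat intervals called lower. The median log2 fold change of the 8 hepatocyte marker genes was -0.47. Medians of the other cell types ran from -0.04 (endothelial) to 0.21 (Kupffer), with 0 intervals called. The part of the hepatocyte markers in the 2 calls was not tested.

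Fold changes at both start sites were near 0. The Pck1 start interval held 49.9 ± 7.82 CPM without and 50.5 ± 2.77 CPM with the knockout (log2 fold change 0.02, SE 0.10), and that of Tat 19.6 ± 2.82 and 20.4 ± 3.25 CPM (0.06, SE 0.14). From 2.32 to 6.97 kb past the Pck1 start, 8 of 8 intervals had negative fold changes, from -0.55 to -0.19, of which the 1 described passed. From -7.04 to 1.60 kb, 9 of 12 intervals were negative too, with values from -0.40 to 0.29, and 0 passed (lowest adjusted p = 0.509). The strongest Pck1 interval, at chr2:173159156-173159656 just past the gene's end, lay in the stretch from 2.32 to 6.97 kb. It held 123 ± 29.2 and 93.2 ± 26.7 CPM (-0.40, SE 0.14, adjusted p = 0.220). In Tat the 3 intervals from 0.721 to 2.24 kb ran from -0.62 to -0.56, whereas the 6 intervals from 7.93 to 11.1 kb, around the end of the gene, were all positive, from 0.21 to 0.52, with a lowest adjusted p of 0.271. The strongest Tat interval lay there, at chr8:109999957-110000457, with 52.6 ± 27.8 and 67.0 ± 16.1 CPM (0.34, SE 0.22). These stretches were chosen after the values were seen, and the contrast between start and body was not tested.

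**Figure D5:**
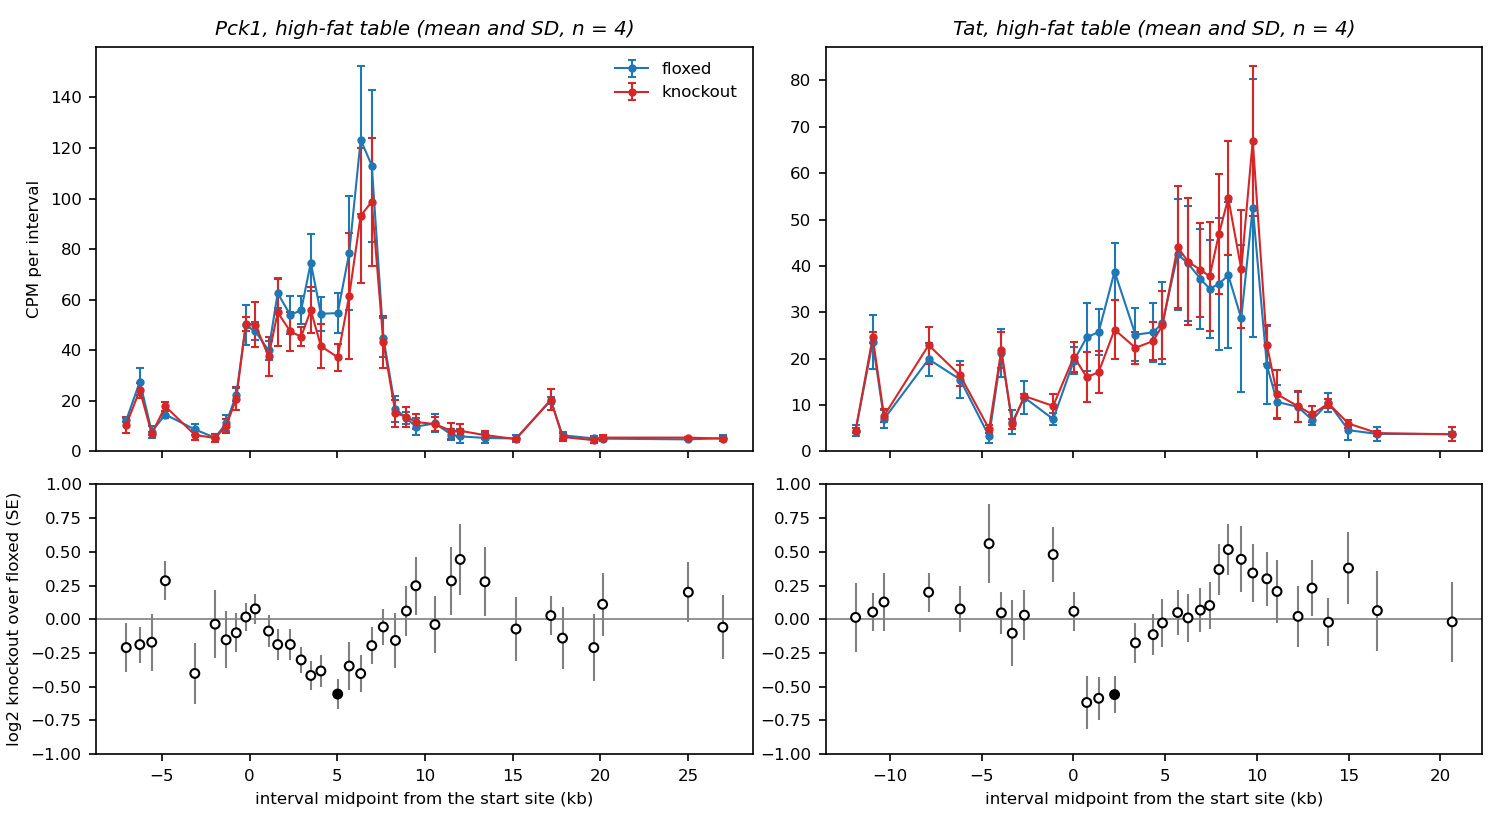
Upper panels give the mean and SD (n = 4) of CPM per high-fat interval of Pck1 and Tat in floxed and knockout livers against the distance from the start site in kb, and lower panels the log2 fold change with its SE (filled: called). The called intervals sit at 5.02 kb in Pck1 (-0.55) and 2.24 kb in Tat (-0.56), while fold changes at the start sites are 0.02 and 0.06.

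Summed over each gene, 0 of 9 members passed on the high-fat diet by edgeR, DESeq2 or limma-voom, where edgeR called 0.344% of 16280 genes (56), and 1 of 9 had an unadjusted p under 0.05, beside 9.99% of all genes. That gene was Ppargc1a. It stood at 8.88, 9.69, 9.14 and 9.49 CPM per interval in floxed and at 10.6, 10.8, 11.4 and 10.4 in knockout livers. The groups did not overlap, which held for 5.08% of all summed high-fat genes. The log2 fold change of Ppargc1a was 0.22 (SE 0.07, edgeR adjusted p = 0.245). Its strongest interval, at chr5:51867985-51868485, within the RefSeq bounds of the gene but 301 kb upstream of the start site at hand, held 19.0 ± 0.90 CPM without and 25.4 ± 2.29 CPM with the knockout (log2 fold change 0.42, SE 0.13, adjusted p = 0.128). The strongest chow interval of Ppargc1a, at chr5:51868140-51868640, held 24.6 ± 4.94 and 26.8 ± 3.13 CPM (0.12, SE 0.16, adjusted p = 0.871).

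Sds had the largest log2 fold change of a summed gene among the members there, 0.38 (SE 0.19, edgeR adjusted p = 0.513), and Pck1 the lowest, -0.20 (SE 0.12, 0.630). Irs2 was at 0.14 (SE 0.08), Tat at 0.08 (SE 0.17), Pcx at 0.07 (SE 0.11), Foxo1 at 0.00 (SE 0.10), Fbp1 at -0.01 (SE 0.11) and G6pc at -0.09 (SE 0.17). Intervals with the lowest p in their gene included chr13:62886819-62887319 in Fbp1, 1.21 kb past its start, with 9.15 ± 1.78 CPM without and 4.99 ± 1.93 CPM with the knockout (-0.87, SE 0.24, adjusted p = 0.0766). In Irs2 it was chr8:10993439-10993939, 15.2 kb past the start, with 3.23 ± 0.71 and 6.10 ± 0.73 CPM (0.91, SE 0.25, adjusted p = 0.083). Groups did not overlap for either, and neither passed. The 8 start-window intervals of 7 genes ran from -0.14 to 0.20 with SEs of 0.10 to 0.19 and a lowest adjusted p of 0.654.

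The genotype effect was compared between diets in 1 fit of all 14 libraries, on intervals matched 1 to 1 by at least 50% of their width and summed over 15258 genes. Of the 9 members 0 passed by edgeR, DESeq2 or limma-voom, where edgeR called 0.0328% of genes (5), and 1 had an unadjusted p under 0.05, beside 6.76%. That gene was Sds, whose effect was 1.01 higher on the log2 scale with the high-fat diet (SE 0.37, edgeR adjusted p = 0.579). Without knockout 3 on chow the difference was 0.69. G6pc was at 0.62 (SE 0.57), Tat at 0.50 (SE 0.33), Fbp1 at 0.22 (SE 0.21) and Irs2 at 0.14 (SE 0.13). Pck1 was at 0.10 (SE 0.45), Pcx at 0.07 (SE 0.17), Ppargc1a at 0.05 (SE 0.12) and Foxo1 at -0.08 (SE 0.12).

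Other genes of the pathway were read from lists of neighbours in it. Of 22 further genes for gluconeogenic enzymes and glucose export, 21 had intervals, all but Slc37a4. On chow 0 of them passed on summed intervals by any of the 3 tools (4 of 21 at an unadjusted p under 0.05 in edgeR, beside 6.57% of all genes), and 0 of their 170 intervals passed in edgeR (34 unadjusted, or 20.0%, beside 6.77% of all chow intervals, and 3 each in DESeq2 and limma-voom). The median log2 fold change of the genes was 0.03. On the high-fat diet 0 genes passed by any of the 3 tools (5 of 21 unadjusted, beside 9.99% of all genes), at a median of 0.01. At an unadjusted p under 0.05 in edgeR there were 60 of 254 intervals, or 23.6%, beside 10.2% of all high-fat intervals. DESeq2 called 6 intervals and limma-voom 4. In edgeR 6 of 254 rose and 0 fell, beside 0.751% of all called, and 5 of them lay in Got1 (cytosolic aspartate aminotransferase). Summed, Got1 stood at 9.62, 11.4, 6.04 and 6.504 CPM per interval in floxed and 14.2, 10.8, 10.8 and 12.8 in knockout livers, with overlap (0.53, SE 0.16, edgeR adjusted p = 0.188).

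All 20 genes on the side of glucagon, cAMP and glucocorticoids had intervals. On chow 0 of them passed by any of the 3 tools (3 of 20 unadjusted in edgeR, beside 6.57% of all genes), and the median was 0.02. On the high-fat diet 2 rose on summed intervals in edgeR, where 0.344% of all genes were called, at a median of 0.02 over the 20. At an unadjusted p under 0.05 there were 8 of the 20 genes, or 40%, beside 9.99% of all genes. Of the 493 intervals 113, or 22.9%, had such a p, beside 10.2% of all. After adjustment 21 of 493 intervals rose and 3 fell, where 0.751% of all high-fat intervals were called in either direction. Of the 21, 14 belonged to Nr4a1 and 6 to Igfbp1, both known to be higher in these knockouts when the lists were drawn up. Nr4a1, a nuclear receptor induced by cAMP, stood at 9.11, 10.3, 8.53 and 8.63 CPM per interval in floxed and 16.3, 17.3, 11.9 and 13.6 in knockout livers, without overlap (0.70, SE 0.11, edgeR adjusted p = 0.00373). Its call was lost without floxed 4 (adjusted p = 0.0501). Igfbp1, the gene that ran with Pck1 and G6pc on chow, stood at 12.4, 14.6, 13.5 and 16.3 in floxed and 20.0, 24.0, 16.6 and 33.2 in knockout livers, also without overlap (0.72, SE 0.15, edgeR adjusted p = 0.0474). DESeq2 did not call Igfbp1 (adjusted p = 0.136), nor did edgeR with RLE scaling (adjusted p = 0.0504) or without knockout 2 or 4 or floxed 1, 2 or 4 (adjusted p from 0.0830 to 0.164). The 3 intervals that fell belonged to Ppara (2), the fatty acid sensing receptor of fasting, and Tdo2 (1), which breaks down tryptophan.

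On the insulin side and in glycolysis, 14 of 15 genes had intervals, all but Pfkl. On chow 0 passed by any of the 3 tools (0 unadjusted) and on the high-fat diet 0 did (2 unadjusted), with medians of 0.07 and -0.06. In edgeR 0 of their 211 chow intervals passed (9 unadjusted, 0 in the other tools), as did 0 of 256 high-fat intervals (31 unadjusted, or 12.1%, beside 10.2% of all high-fat intervals, 0 in DESeq2 and 1 in limma-voom).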

How the data were processed

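ATAC-seq libraries of 14 mouse livers were analysed from 1 table per diet. The authors deposited whole-number counts of reads per 501 bp interval and library, on mm10 per the labels. The submitters' processing notes list MACS2 2.2.7.1, Bowtie2 2.4.2, HOMER 4.11, Trim Galore 0.6.7, bedtools, DESeq2 and ChIPseeker with no role given. Treatment of duplicate and mitochondrial reads, the shift for the transposase's offset, and any pooling for interval calling are not given in the sources at hand. Intervals were called on the libraries compared, and regions called in neither genotype are missed.

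The 2 tables were fitted separately in R 4.3.3 using edgeR 4.0.16 (TMM, filterByExpr, which removed 0 features, quasi-likelihood test of genotype, Benjamini-Hochberg adjustment over the whole table), on intervals and on sums per gene. SEs are from that fit and SDs from CPM. DESeq2 1.42.0, limma 3.58.1 (voom with quality weights), other scalings and filters, a 10 kb reach, and libraries left out were alternatives. The fits were tested on simulated counts. The genes, lists and tests were chosen with earlier results of these data known. Genes named are the members, and intervals named are those called and, for each member, those of lowest p, of highest level or at the start site, with pathway genes named where called; results on some pathway genes are not reported here.

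Libraries are read as single animals from the titles. No library repeated another of its group: the chi-square of their counts was at least 2.49 times its degrees of freedom. Same-numbered chow libraries had r = 0.309, 0.685 and 0.434 between their deviations from the group means (numbers from column headings only). Differently numbered chow pairs ran from -0.567 to 0.349, and knockout 1 with floxed 3 (0.349) exceeded the pair numbered 1. Whether the numbers pair all chow animals is thus unclear. The fit with the number as a block left the members' chow calls at 0.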

Additional observations from a re-analysis of the deposited data

Results flagged for a closer look

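Summed Foxo1 accessibility in high-fat knockout 4 was 8.69 CPM per interval, while the other 3 knockouts lay between 7.51 and 7.63, so this liver stood far from the rest of its group. Chance alone sets apart about 1 in 20 groups of this size by this measure; the groups of 4 of every member gene and of both called intervals were examined.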

How the results depend on the processing

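Member calls on chow were 0 in edgeR under every scaling, filter, block and left-out library, and 1 in DESeq2 and 1 in limma-voom. The setting without a filter could not differ, since the main filter removed 0 features. All chow intervals called went from 20 to 544 in DESeq2, 677 in limma-voom, 126 with the replicate block, 333 without the shallow pair and 0 to 604 with 1 library left out. On the high-fat diet the 2 member calls became 1 in DESeq2, 4 in limma-voom, 10 with the replicate block, 10 without knockout 1 and floxed 3 (which had the highest and the lowest share of reads in the members, so that leaving them out favours lower values in the knockout), and 0 to 6 with 1 library left out: 6 without knockout 1 or floxed 3, 1 without floxed 1 and 0 without knockout 3 or 4 or floxed 2 or 4. All high-fat calls (795) became 829 in DESeq2 and 656 in limma-voom. They became 1420 with the block, 1883 without knockout 1 and floxed 3, and 304 to 1189 with 1 library left out. Same-numbered high-fat libraries had r from 0.0316 to 0.234, and differently numbered ones from -0.24 to 0.228. Whether the numbers pair the high-fat animals is thus unclear too. Under the block 1 summed gene was called in edgeR, Sds (log2 fold change 0.43, adjusted p = 0.0223). Summed members were otherwise 0 on both diets and for the difference under the alternatives run. The causes were not tested.

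Signs turned under some settings, in part of effects that were not near 0. Without chow floxed 1, summed G6pc on chow (-0.75), its start interval (-0.43) and its difference between diets (0.62) turned sign, as did summed Pck1 (-0.27), which also turned without knockout 3. Without the libraries that stand apart, the Pck1 start interval became -0.055 (chow) and -0.11 (high-fat) (-0.0047 in limma-voom), the strongest G6pc interval on chow -0.065, and the Tat start interval -0.0040 and strongest interval -0.048 on the high-fat diet. Summed Foxo1 became -0.0034 (chow) and -0.016 (high-fat diet, where Pcx became -0.035 and Tat -0.19), and Pcx -0.033 for the difference between diets. Summed high-fat Fbp1 became 0.00030 by library size only and Foxo1 -0.0054 within 10 kb, and the difference for Pck1 -0.024 at 90% of the width. With 1 library left out, start intervals ran from -0.14 to 0.34 for Pck1, -0.78 to 0.14 for G6pc and -0.38 to 0.31 for Tat on chow, and from -0.082 to 0.082, -0.35 to 0.065 and -0.042 to 0.15 on the high-fat diet. The strongest intervals ran from -0.55 to 0.31 for Pck1 and -0.010 to 0.28 for Ppargc1a on chow, and from -0.17 to 0.10 for G6pc on the high-fat diet. Summed chow values ran from -0.67 to 0.22 for Pck1, -1.15 to 0.32 for G6pc, -0.21 to 0.046 for Pcx, -0.13 to 0.021 for Irs2 and -0.016 to 0.017 for Foxo1. Summed high-fat values ran from -0.32 to 0.070 for G6pc, -0.11 to 0.082 for Fbp1, -0.013 to 0.17 for Pcx, -0.099 to 0.22 for Tat and -0.067 to 0.091 for Foxo1. Differences between diets ran from -0.38 to 0.46 for Pck1, -0.43 to 1.004 for G6pc, -0.031 to 0.24 for Pcx and -0.033 to 0.14 for Ppargc1a. Depth limits the weak intervals: the lowest member interval held 33 reads in a chow and 12 in a high-fat library.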
